A study of Mus musculus with 40 samples.

Results

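The Fc gamma receptor genes *Fcgr1*, *Fcgr2b*, *Fcgr3* and *Fcgr4*, the neonatal Fc receptor gene *Fcgrt* and the shared signaling chain gene *Fcer1g* were examined in cortex of *Trem2* H157Y knock-in mice. The members were taken by gene symbol, giving 6 of the 43346 genes in the merged count table, and all 6 were among the 21253 genes with enough counts to be tested. Fc gamma receptors bind the constant part of IgG and let phagocytes respond to antibody-coated material. The activating receptors encoded by *Fcgr1*, *Fcgr3* and *Fcgr4* reach the cell surface and signal through the Fc receptor gamma chain, the product of *Fcer1g*, which carries an immunoreceptor tyrosine-based activation motif (ITAM), whereas the receptor encoded by *Fcgr2b* carries an inhibitory motif and dampens that signal. FcRn, the product of *Fcgrt*, is built like a class I MHC heavy chain, pairs with beta-2-microglobulin and recycles or transports IgG. In the brain the activating and inhibitory receptors are known mainly from microglia and border macrophages, while FcRn is also known from endothelium.

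Bulk RNA-seq libraries came from the cortex of 40 mice, 1 library per mouse, and each of the 4 groups held 10 mice, 5 of either sex. The non-amyloid cohort, without 5xFAD and 6 months old, paired *Trem2* WT mice with homozygotes for the H157Y allele (Hom). In the amyloid cohort, sampled at 8.5 months, WT and Hom mice alike carried the 5xFAD transgenes, so the amyloid WT mice are controls for the *Trem2* genotype only. In 5xFAD, mutant human transgenes are expressed from a neuronal Thy1 promoter, and the study's methods give the mice as hemizygous for it. The H157Y change was introduced into the endogenous mouse gene by genome editing, and the study names founder 1 as the source of its mice unless noted otherwise. Because age and transgene differ together between the cohorts, their parts in a difference between cohorts cannot be told apart. The genotype comparisons ask what the variant does with and without amyloid, and the cohort comparisons use the same 4 groups again, so comparisons that share a group share its libraries.

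Library depth ranged from 41646271 to 105903846 counts assigned to genes. Summed marker levels were 4170 to 5351 CPM (each count divided by the scaled size of its library) for neurons over all groups, as the label cortex requires, while the microglial markers summed to 320 to 416 CPM in non-amyloid mice, 550 to 1154 CPM in amyloid WT mice and 466.1 to 772 CPM in amyloid Hom mice. *Trem2* itself averaged 10.7 CPM in non-amyloid WT, 10.4 in non-amyloid Hom, 62.2 in amyloid WT and 33.9 in amyloid Hom mice; the knock-in changes a codon, so these levels do not check the genotype labels. One library stood apart, the amyloid Hom female with replicate number 19: it had the lowest depth, and genes annotated as antisense took 0.616% of its counts against 0.0144% to 0.0191% in the other 39 libraries. It was kept. Counts of members called between amyloid Hom and WT mice are given with and without it, whereas most group means and the gene lists are given only with it. In a non-amyloid WT female, replicate 24, monocyte and neutrophil markers summed to 15.2 CPM against 0.826 to 2.86 CPM in the other 39 libraries, and its 6 member levels ranked 3 to 5 from the highest in its group of 10.

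The genes *Fcer1g*, *Fcgr2b*, *Fcgr3* and *Fcgr4* lie within 275.7 kb of mouse chromosome 1 (mm10, 170958617 to 171234365), a stretch with 11 protein-coding genes. Within it, *Fcgr2b* (ENSMUSG00000026656) spans 170958617 to 170976547 on the minus strand, *Fcgr4* (ENSMUSG00000059089) spans 171018920 to 171029761 on the plus strand, *Fcgr3* (ENSMUSG00000059498) spans 171051174 to 171064935 on the minus strand, and *Fcer1g* (ENSMUSG00000058715) spans 171229572 to 171234365 on the minus strand. *Fcgr1* (ENSMUSG00000015947) is on chromosome 3, at 96282909 to 96293969 on the minus strand. *Fcgrt* (ENSMUSG00000003420) is on chromosome 7, at 45092993 to 45103822 on the minus strand. The start regions are shown because 5 of the members moved together between groups and 1 did not. Each sequence is from RefSeq (GRCm38.p6), reads 5′ to 3′ on the gene's strand, and runs from 75 bases before the annotated start to the base at position 24 of the transcript. Capitals mark TTCCTC, which is GAGGAA, the core recognised by the myeloid factor PU.1, read on the opposite strand.
*Fcer1g*, chr1:171234325-171234424, minus strand: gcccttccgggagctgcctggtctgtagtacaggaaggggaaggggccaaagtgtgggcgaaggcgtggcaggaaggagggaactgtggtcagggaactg
*Fcgr1*, chr3:96293945-96294044, minus strand: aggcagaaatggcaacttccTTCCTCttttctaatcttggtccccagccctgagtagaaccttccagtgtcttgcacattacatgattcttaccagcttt
*Fcgr3*, chr1:171059379-171059478, minus strand: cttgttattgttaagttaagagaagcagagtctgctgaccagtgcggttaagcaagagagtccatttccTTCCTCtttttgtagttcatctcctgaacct
*Fcgr4*, chr1:171018851-171018950, plus strand: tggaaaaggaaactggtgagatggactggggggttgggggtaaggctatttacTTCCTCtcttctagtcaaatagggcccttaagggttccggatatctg
*Fcgr2b*, chr1:170976047-170976146, minus strand: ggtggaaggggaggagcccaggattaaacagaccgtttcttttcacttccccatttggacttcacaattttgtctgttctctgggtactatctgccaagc
*Fcgrt*, chr7:45103798-45103897, minus strand: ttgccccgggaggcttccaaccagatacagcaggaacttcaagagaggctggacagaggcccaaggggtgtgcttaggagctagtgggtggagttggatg

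The motif GAGGAA was searched on both strands from 250 bases before to 50 bases after each start. It was found in the windows of the 3 activating receptor genes, at bases -55 to -50 for *Fcgr1*, -6 to -1 for *Fcgr3* and -22 to -17 for *Fcgr4*, and not in those of *Fcer1g*, *Fcgr2b* and *Fcgrt*. RefSeq gives *Fcgr3* a second start 9 bases downstream, from which the same match lies at -15 to -10, and both starts lie inside the gene span given above, which is from GENCODE. The RefSeq start used for *Fcgr2b* also lies inside its span, and no window at the outer end of that span was searched. Of all 32851 windows of this length, 28.3% hold GAGGAA, so a match in 3 of 6 windows describes the letters and says nothing of binding. The interferon-gamma site TTCNNNGAA was found for *Fcgr1* at -109 to -101, outside the bases shown, and is held by 8.30% of all windows. The interferon-response pattern, which reads GAAA, any 2 bases and GAAA again, was found for *Fcgr4* at -73 to -64 and is held by 3.44% of windows.

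*Fcgr2b* and *Fcgr3* are close paralogs, and reads from their shared coding sequence cannot be placed in either with certainty. The longest identical coding stretch has 129 bases, at coding bases 278 to 406 of transcript Fcgr2b-201 and 263 to 391 of Fcgr3-201, and is shown because it marks where the counts of these paralogs could mix.
*Fcgr2b* and *Fcgr3*, shared: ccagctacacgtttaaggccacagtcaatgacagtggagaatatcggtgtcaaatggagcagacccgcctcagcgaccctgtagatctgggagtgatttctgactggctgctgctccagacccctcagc
Counted as runs of 100 bases, 44 are common to both genes, which is 2.54% of those of *Fcgr3* and 0.753% of those of *Fcgr2b*. *Fcgr2b* shared more runs with *Cplx2* (127, 2.17%), the long noncoding gene Gm47409 (96) and *Rab3c* (85) than with *Fcgr3*, and 4.30% of its runs were found in some other gene. Of the exon bases of *Fcgr2b*, 155 (2.68%) also lie opposite the antisense gene Gm38204, and the sources used here do not state whether strand was used in counting.

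Per unit of length, which allows levels to be compared between genes, *Fcgr3* and *Fcer1g* were the most abundant members in the amyloid mice and *Fcgr4* the least abundant in every group. In non-amyloid WT cortex, in CPM per kilobase, *Fcgr3* averaged 7.65 ± 1.09 (SD, n = 10), *Fcer1g* 7.08 ± 0.854 and *Fcgrt* 6.62 ± 1.104, 3 neighbours whose means lay within 1 SD of each other. *Fcgr1* followed at 1.19 ± 0.194, *Fcgr2b* at 0.636 ± 0.114 and *Fcgr4* at 0.147 ± 0.0842. Non-amyloid Hom cortex was alike, at 7.58 ± 0.656 for *Fcgr3*, 6.47 ± 1.06 for *Fcgrt*, 6.44 ± 0.5 for *Fcer1g*, 1.1 ± 0.207 for *Fcgr1*, 0.744 ± 0.114 for *Fcgr2b* and 0.1445 ± 0.0715 for *Fcgr4*. In amyloid WT mice *Fcgr3* stood at 28.2 ± 8.40 and *Fcer1g* at 26.5 ± 7.59, again within 1 SD of each other, ahead of *Fcgrt* at 6.72 ± 1.02. *Fcgr1* at 3.96 ± 1.66 and *Fcgr2b* at 3.93 ± 1.69 were not separable there, and *Fcgr4* reached 0.989 ± 0.699. In amyloid Hom mice the levels were 17.8 ± 4.18 for *Fcgr3*, 15.7 ± 5.29 for *Fcer1g*, 6.36 ± 1.12 for *Fcgrt*, 2.31 ± 0.618 for *Fcgr1*, 1.90 ± 0.457 for *Fcgr2b* and 0.408 ± 0.109 for *Fcgr4*. The order of *Fcgr1* and *Fcgr2b* depends on the length used, since with the longest transcript of each gene in place of the length in the file *Fcgr2b* was above *Fcgr1* in 3 of the 4 groups.

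**Figure D1:**
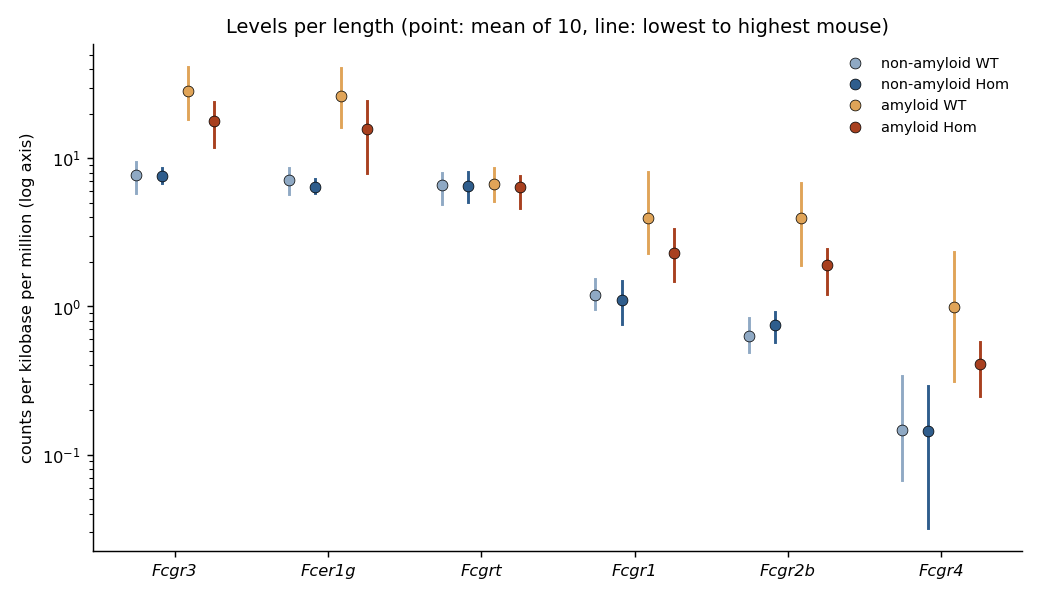
Level of each member per unit of length (vertical log axis, CPM per kilobase) in the 4 groups of 10 mice, with points at the mean and lines from the lowest to the highest mouse. *Fcgrt* stays near 6.36 to 6.72 in all groups while *Fcgr3* reaches a mean of 28.2 and *Fcer1g* a mean of 26.5 in amyloid WT mice.

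The 5 members other than *Fcgrt* were higher in amyloid than in non-amyloid mice of either genotype, and *Fcgrt* was not. *Fcer1g* lay between 4.997 and 7.52 CPM (median 6.26) in non-amyloid WT mice, between 5.09 and 6.38 (median 5.53) in non-amyloid Hom mice, between 14.2 and 35.4 (median 22.8) in amyloid WT mice and between 6.97 and 21.3 (median 12.9) in amyloid Hom mice. Every amyloid mouse was therefore above every non-amyloid mouse of its genotype for the signaling chain. For *Fcgr1*, the high-affinity IgG receptor, the lowest, median and highest mice were at 2.49, 3.04 and 3.95 CPM in non-amyloid WT, 1.97, 2.75 and 3.86 in non-amyloid Hom, 5.90, 8.92 and 20.8 in amyloid WT and 3.87, 5.38 and 8.59 in amyloid Hom mice. *Fcgr3*, a low-affinity activating receptor, ran from 10.2 to 16.4 CPM (median 13.3) in non-amyloid WT, 11.8 to 14.9 (median 13.2) in non-amyloid Hom, 32.1 to 71.7 (median 46.3) in amyloid WT and 20.6 to 41.7 (median 28.9) in amyloid Hom mice. Neither gene overlapped between cohorts within a genotype.

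*Fcgr4*, which encodes an activating receptor for IgG2a and IgG2b, was the scarcest member. It had 6 to 34 counts per library in non-amyloid WT and 3 to 23 in non-amyloid Hom mice, so its values there are imprecise, against 31 to 217 in amyloid WT and 17 to 51 in amyloid Hom mice. In CPM, its lowest, median and highest mice stood at 0.0844, 0.180 and 0.425 in non-amyloid WT, 0.0403, 0.173 and 0.367 in non-amyloid Hom, 0.396, 0.871 and 2.95 in amyloid WT and 0.314, 0.510 and 0.718 in amyloid Hom mice. In both genotypes 9 of the 10 amyloid mice were above every non-amyloid mouse.

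The inhibitory receptor gene *Fcgr2b* ran from 2.87 to 4.87 CPM (median 3.43) in non-amyloid WT, 3.34 to 5.33 (median 4.31) in non-amyloid Hom, 10.97 to 39.7 (median 20.0) in amyloid WT and 7.01 to 14.1 (median 11.1) in amyloid Hom mice, with no overlap between cohorts. *Fcgrt* spanned 8.61 to 13.9 CPM (median 11.6), 8.78 to 14.1 (median 11.4), 8.99 to 14.9 (median 11.4) and 7.97 to 13.1 (median 11.2) in the same order of groups, and its groups overlapped nearly completely. Across all genes tested, 1.95% lay wholly higher in amyloid WT than in non-amyloid WT mice and 0.88% wholly higher in amyloid Hom than in non-amyloid Hom mice, against 4 of the 6 members in each case.

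**Figure D2:**
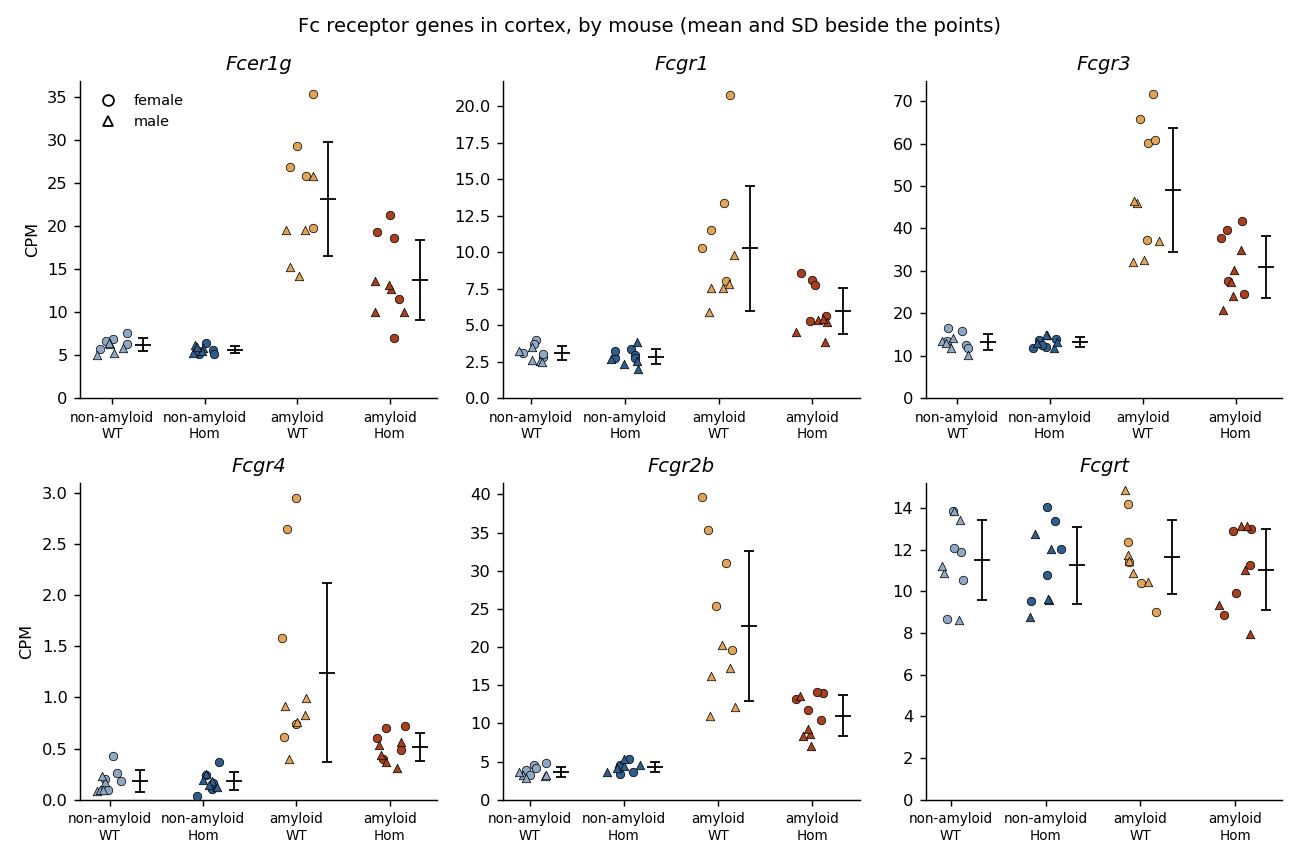
CPM (vertical axis from 0) of each member in every mouse of the 4 groups, circles for females and triangles for males, with the mean and SD of the 10 mice beside the points. *Fcgr2b* rises from 2.87 to 4.87 CPM in non-amyloid WT mice to 10.97 to 39.7 CPM in amyloid WT mice and lies between 7.01 and 14.1 CPM in amyloid Hom mice, while *Fcgrt* holds its range in all 4 groups.

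Differences between groups were tested with edgeR's quasi-likelihood test over all 21253 genes with Benjamini-Hochberg adjustment, and a gene was called when the adjusted p was under 0.05 and the log2 fold change was beyond 0.25 in size. In amyloid WT against non-amyloid WT mice, 5 of 6 members were called higher, where 6.62% of all genes were. Among the activating genes, *Fcer1g* was 3.75-fold higher (log2 fold change 1.91, SE 0.150, adjusted p = 3.45e-13), *Fcgr1* 3.32-fold (1.73, SE 0.167, adjusted p = 9.10e-11), *Fcgr3* 3.69-fold (1.88, SE 0.133, adjusted p = 1.87e-14) and *Fcgr4* 6.59-fold (2.72, SE 0.331, adjusted p = 2.79e-08). *Fcgr2b* was 6.18-fold higher (2.63, SE 0.180, adjusted p = 9.82e-15). *Fcgrt* had a log2 fold change of 0.02 with a 95% confidence interval from -0.19 to 0.23 (adjusted p = 0.949). Left out one at a time, no library of either group changed the number of members called.

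In amyloid Hom against non-amyloid Hom mice the same 5 members were called higher, where 5.71% of all genes were, and each had a smaller fold change than in WT mice. They were *Fcer1g* (2.44-fold, edgeR adjusted p = 3.09e-08), *Fcgr1* (2.095-fold, adjusted p = 1.37e-05), *Fcgr3* (2.35-fold, adjusted p = 5.43e-09), *Fcgr4* (2.83-fold, adjusted p = 0.00214) and *Fcgr2b* (2.56-fold, adjusted p = 3.37e-07). *Fcgrt* stood at a log2 fold change of -0.03 (adjusted p = 0.906). The difference between the genotypes in these responses is the genotype by cohort term given further on.

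Within the amyloid cohort, the 5 members other than *Fcgrt* had lower means in Hom than in WT mice, but none was called at the study's thresholds. *Fcgr2b* averaged 11.02 ± 2.65 CPM in Hom and 22.8 ± 9.79 CPM in WT mice (SD, n = 10), *Fcer1g* 13.7 ± 4.62 against 23.2 ± 6.63, and *Fcgr3* 30.9 ± 7.25 against 49.0 ± 14.6. *Fcgr1* averaged 5.97 ± 1.6 against 10.3 ± 4.31 and *Fcgr4* 0.512 ± 0.136 against 1.24 ± 0.878, while *Fcgrt* was at 11.1 ± 1.95 against 11.7 ± 1.77. The groups overlapped for every member: 7 of 10 Hom mice lay below every WT mouse for *Fcer1g* and for *Fcgr1*, 6 for *Fcgr3*, 5 for *Fcgr2b*, 2 for *Fcgr4* and 2 for *Fcgrt*. Cortex was sequenced in bulk, so fewer cells of a type and less RNA per cell cannot be told apart in this or any other comparison.

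The log2 fold change of Hom against WT was -1.05 for *Fcgr2b* (SE 0.210, 95% confidence interval -1.48 to -0.61, p = 5.18e-05, edgeR adjusted p = 0.0525), just past the threshold, and this gene was number 20 of all genes by p. For the activating genes it was -0.76 for *Fcer1g* (SE 0.187, adjusted p = 0.0797), -0.78 for *Fcgr1* (SE 0.195, adjusted p = 0.0798), -0.67 for *Fcgr3* (SE 0.160, adjusted p = 0.0785) and -1.28 for *Fcgr4* (SE 0.309, adjusted p = 0.0787). *Fcgrt* was at -0.08 (95% confidence interval -0.29 to 0.14, adjusted p = 0.783). Thus 0 of 6 members were called by edgeR, where 16 genes, 0.0753% of those tested, were. At an unadjusted p under 0.05, 5 of 6 members were lower, against 5.77% of all genes. DESeq2 called the same 5 members lower among 298 genes in all, limma with voom quality weights called 0, and a single edgeR fit of all 40 libraries called them among 612.

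Single libraries decided these calls. Without the Hom replicate 19 the count of members called stayed at 0, with log2 fold changes of -0.68 for *Fcer1g* (adjusted p = 0.121) and -1.06 for *Fcgr2b* (adjusted p = 0.0737). In replicate 19 itself *Fcer1g* was at 6.97 CPM, the lowest of the 10 Hom mice, the other 9 of which averaged 14.5 ± 4.21 CPM, while the other members ranked 3 to 7 from the lowest. Without WT replicate 13 edgeR called all 5, among 204 genes in all. Without Hom replicate 3 (65 genes in all) or WT replicate 22 (95) it called 2, and without WT replicate 9 (60) it called 1. With every library kept 16 of 21253 genes were called, so the number of all genes called moved as well. WT replicate 32, a female, was the highest of the 10 WT mice for all 5 of these members, and without it the log2 fold change was -0.92 for *Fcgr2b* (adjusted p = 0.109) and -0.67 for *Fcer1g* (adjusted p = 0.164).

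Part of the spread within the amyloid groups lay between the sexes. With sex as a covariate, 5 of 6 members were called lower in Hom mice, where 1.14% of all genes were called lower. The log2 fold changes were -0.99 for *Fcgr2b* (edgeR adjusted p = 0.00259), -0.76 for *Fcgr1* (adjusted p = 0.00942), -0.64 for *Fcgr3* (adjusted p = 0.0121), -0.74 for *Fcer1g* (adjusted p = 0.0202), -1.19 for *Fcgr4* (adjusted p = 0.0264) and -0.08 for *Fcgrt* (adjusted p = 0.792). They were close to those without the covariate, whereas the adjusted p-values were lower for the 5 called members. With replicate 19 also left out, the same number was called, at adjusted p from 0.00560 for *Fcgr2b* to 0.0496 for *Fcgr4*.

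**Figure D3:**
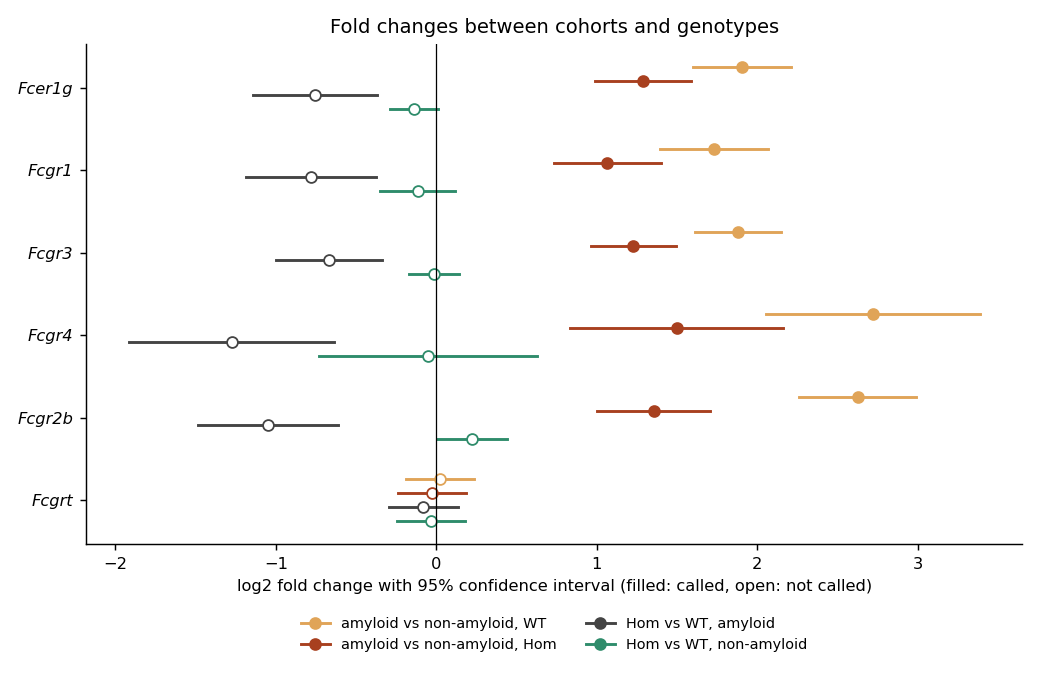
Log2 fold change (horizontal axis) of each member with its 95% confidence interval in 4 comparisons: amyloid against non-amyloid in WT and in Hom mice, and Hom against WT in the amyloid and in the non-amyloid cohort. Filled points were called and open points were not: the 10 filled points are the 5 members other than *Fcgrt* in both cohort comparisons, from 1.07 for *Fcgr1* in Hom mice to 2.72 for *Fcgr4* in WT mice.

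In the non-amyloid cohort, the Hom and WT mice had similar levels of the members. *Fcer1g* averaged 5.63 ± 0.437 CPM in Hom and 6.19 ± 0.747 CPM in WT mice, *Fcgr3* 13.2 ± 1.14 against 13.3 ± 1.89, *Fcgr1* 2.85 ± 0.535 against 3.09 ± 0.502 and *Fcgr4* 0.182 ± 0.0898 against 0.185 ± 0.106. *Fcgr2b*, unlike in the amyloid cohort, had the higher mean in Hom mice, 4.31 ± 0.661 against 3.68 ± 0.662 CPM. None of the 6 members was called by edgeR, where 0.0329% of all genes were, nor by DESeq2, and 1 of 6 was higher at an unadjusted p under 0.05, against 2.23% of all genes. That member was *Fcgr2b*, with a log2 fold change of 0.22 (95% confidence interval 0.01 to 0.44, p = 0.0430, adjusted p = 0.962). The others were at -0.14 for *Fcer1g*, -0.12 for *Fcgr1*, -0.01 for *Fcgr3*, -0.05 for *Fcgr4* and -0.03 for *Fcgrt*. By sex, all 5 non-amyloid Hom males (3.66 to 5.30 CPM) were above all 5 WT males (2.87 to 3.57 CPM) for *Fcgr2b*, as were 0.221% of all genes, while in females 1 of 5 Hom mice was above every WT mouse.

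The genotype by cohort term, the difference between the Hom against WT contrasts of the cohorts, was negative for all 6 members. *Fcgr2b* had the lowest p of all 21253 genes in this test, with a term of -1.27 on the log2 scale (SE 0.243, 95% confidence interval -1.76 to -0.78, p = 5.28e-06, edgeR adjusted p = 0.0676). No member and no other gene was called, 0% of those tested, while 5 of 6 members were lower at an unadjusted p under 0.05, against 5.54% of all genes. The terms of the others were -0.65 for *Fcgr3* (adjusted p = 0.145), -0.62 for *Fcer1g* (adjusted p = 0.266), -0.66 for *Fcgr1* (adjusted p = 0.302), -1.22 for *Fcgr4* (adjusted p = 0.365) and -0.05 for *Fcgrt* (adjusted p = 0.910). With sex as a covariate *Fcgr2b* was called, at -1.26 (SE 0.204, adjusted p = 0.00551), as 1 of 12 genes or 0.0565% of those tested, and with replicate 19 also left out it was called at -1.25 (adjusted p = 0.0114). DESeq2 called 1 of the 6 members in this term, among 38 genes in all. Without a covariate edgeR called *Fcgr2b* when any 1 of replicates 1, 3, 9, 13, 22 or 34 was left out. Those fits called 4 to 22 genes in all. Over single libraries left out, the lowest edgeR adjusted p of *Fcgr2b* was 0.00968 and the highest 0.157.

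In the amyloid cohort, females had higher means than males for the activating and inhibitory receptor genes and for *Fcer1g*. For *Fcgr2b*, WT females averaged 30.2 ± 7.95 CPM (SD, n = 5, 19.6 to 39.7) and WT males 15.4 ± 3.82 CPM (10.97 to 20.3), and Hom females averaged 12.7 ± 1.59 CPM (10.4 to 14.1) and Hom males 9.35 ± 2.501 CPM (7.01 to 13.6). *Fcgr3* averaged 59.2 ± 13.04 CPM in WT females and 38.8 ± 7.07 in WT males, then 34.3 ± 7.70 in Hom females and 27.5 ± 5.49 in Hom males. *Fcer1g* followed the same order with 27.5 ± 5.67, 18.9 ± 4.598, 15.5 ± 6.06 and 11.9 ± 1.76 CPM. So did *Fcgr1*, with 12.8 ± 4.88, 7.73 ± 1.397, 7.07 ± 1.52 and 4.87 ± 0.665 CPM. *Fcgrt* did not, at 11.5 ± 1.97, 11.9 ± 1.75, 11.2 ± 1.82 and 10.9 ± 2.29 CPM.

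Over both genotypes of the amyloid cohort, with genotype in the model, *Fcgr2b* was 1.64-fold higher in females (log2 fold change 0.71, SE 0.148, edgeR adjusted p = 0.0430), and it was the only member of 6 called, where 0.202% of all genes were called higher. *Fcgr1* was at 0.63 (adjusted p = 0.0648), *Fcgr3* at 0.46 (adjusted p = 0.136), *Fcgr4* at 0.78 (adjusted p = 0.322), *Fcer1g* at 0.46 (adjusted p = 0.336) and *Fcgrt* at -0.01. In the non-amyloid cohort the same contrast called 0 of 6 members by edgeR and 0 by DESeq2, against 0.118% of all genes in edgeR, with log2 fold changes from 0.04 for *Fcgr3* to 0.38 for *Fcgr4*, and 0 of 6 passed an unadjusted p under 0.05, against 6.13% of all genes. Whether the sex difference itself differed between the cohorts was not tested.

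Split by sex, the Hom and WT mice of the amyloid cohort did not overlap for *Fcgr2b* in females, nor for *Fcer1g* and *Fcgr1* in males. Among all genes, 1.05% lay wholly lower in Hom females and 0.598% wholly lower in Hom males. In females the log2 fold change of Hom against WT was -1.25 for *Fcgr2b* (edgeR adjusted p = 0.0307), 1 of 6 members called, where 0.169% of all genes were called lower. The other receptor genes in females stood at -0.85 for *Fcgr1* (adjusted p = 0.0590), -0.79 for *Fcgr3* (adjusted p = 0.0566), -1.54 for *Fcgr4* (adjusted p = 0.0584) and -0.82 for *Fcer1g* (adjusted p = 0.0962). The number called in females was 0 without any 1 of replicates 5, 12, 19, 32 or 33, 2 without replicate 34, 3 without replicate 3 and 4 without replicate 8 or 26. The number of all genes called moved as well. It was 0 to 4 in the fits where no member was called, and it reached 1141 without replicate 8. These shifts are therefore not particular to the members. In males no member was called by edgeR, where 0.00471% of all genes were, with -0.72 for *Fcgr2b* (adjusted p = 0.578) and -0.67 for *Fcer1g* (adjusted p = 0.939), and 5 of 6 members were lower at an unadjusted p under 0.05, against 2.15% of all genes. The genotype by sex term called 0 of 6 members and 0% of all genes by edgeR, and 0 members by DESeq2. It was -0.53 for *Fcgr2b* (p = 0.0667, adjusted p = 0.817), and at an unadjusted p under 0.05 it held 0 of 6 members and 5.29% of all genes, so a larger effect in one sex was not shown.

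Genes used to mark homeostatic microglia moved in the same direction as the members. The mean log2 CPM of a microglial reference of 8 genes (among them *P2ry12*, *P2ry13*, *Tmem119*, *Cx3cr1*, *Csf1r*, *Sall1* and *Siglech*) was 5.16 in non-amyloid WT, 5.13 in non-amyloid Hom, 6.03 in amyloid WT and 5.59 in amyloid Hom mice. In amyloid Hom against WT mice, 7 of the 8 were lower at an unadjusted p under 0.05, against 5.77% of all genes. EdgeR called 0 of the 8, where 0.0753% of all genes were called, and the median log2 fold change of the 8 was -0.46. With sex as a covariate 5 of the 8 were called, where 1.14% of all genes were called lower. Relative to this reference, the difference between amyloid Hom and amyloid WT means on the log2 scale was -0.53 for *Fcgr2b*, -0.58 for *Fcgr4*, -0.34 for *Fcer1g*, -0.30 for *Fcgr1*, -0.21 for *Fcgr3* and 0.35 for *Fcgrt*. The groups overlapped for all of them. Below every WT mouse lay 6 Hom mice for *Fcgr1*, 4 each for *Fcer1g* and *Fcgr3*, and 2 each for *Fcgr2b* and *Fcgr4*. For *Fcgrt*, 5 Hom mice lay above every WT mouse. The subtraction takes member and reference to change by equal log2 amounts, which was not tested.

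**Figure D4:**
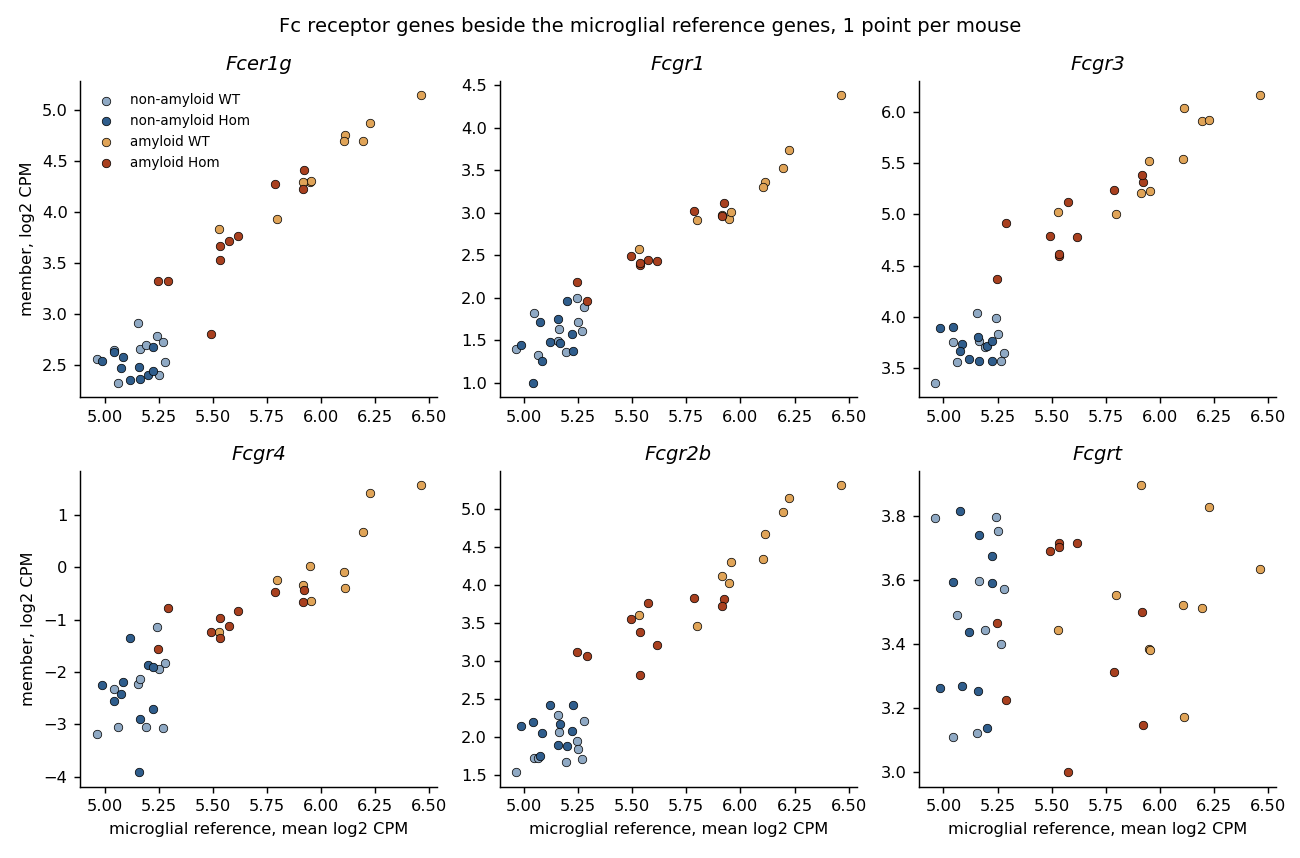
Level of each member (vertical axis, log2 CPM) against the mean log2 CPM of the 8 microglial reference genes (horizontal axis), with 1 point per mouse colored by group. The group means of the reference run from 5.13 in non-amyloid Hom to 6.03 in amyloid WT mice, and 5 members climb with it while *Fcgrt* does not.

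When the reference was entered as a covariate, the log2 fold change of amyloid Hom against WT was -0.21 for *Fcgr2b* (edgeR adjusted p = 0.971), -0.04 for *Fcer1g*, 0.03 for *Fcgr1*, -0.06 for *Fcgr3*, -0.07 for *Fcgr4* and -0.08 for *Fcgrt*. No member was called, where 0.00941% of all genes were, and 0 of 6 passed an unadjusted p under 0.05, against 1.76% of all genes. In amyloid WT against non-amyloid WT mice with this covariate, *Fcgr2b* (1.13, adjusted p = 0.0115) and *Fcgr3* (0.80, adjusted p = 0.0232) were called higher, 2 of 6 members against 0.221% of all genes, while *Fcer1g* stood at 0.59 (adjusted p = 0.268). In Hom mice of the cohorts *Fcgr3* (0.64, adjusted p = 0.00148), *Fcer1g* (0.55, adjusted p = 0.00864) and *Fcgr2b* (0.58, adjusted p = 0.0352) were called higher, 3 of 6 against 1.62% of all genes. The genotype by cohort term of *Fcgr2b* with this covariate was -0.55 (p = 0.00625, adjusted p = 0.764). The reference was measured in the same libraries and itself differed between the groups, so the covariate and the genotype share part of their variation.

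**Figure D5:**
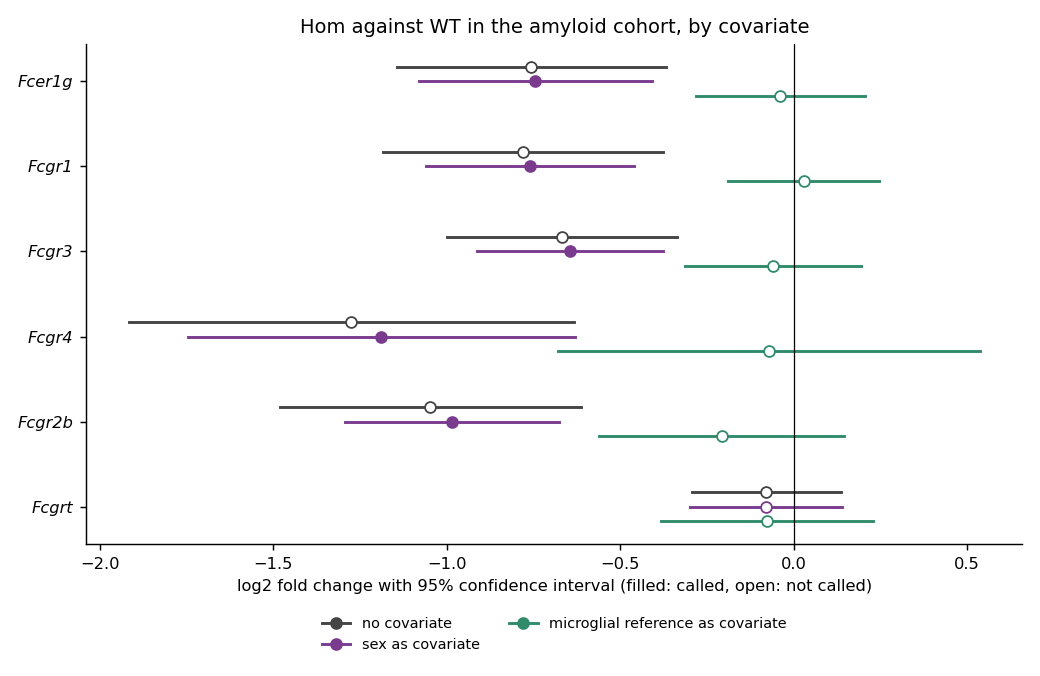
Log2 fold change (horizontal axis) of each member with its 95% confidence interval for Hom against WT in the amyloid cohort, with no covariate, with sex and with the microglial reference as covariate. *Fcgr2b* moves from -1.05 to -0.99 with sex and to -0.21 with the reference, and filled points mark called values, which are the 5 members other than *Fcgrt* under the sex covariate.

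Markers of the other cells that could carry these genes were also read. Perivascular macrophage markers summed to 7.64 to 14.5 CPM in non-amyloid WT, 8.19 to 15.5 in non-amyloid Hom, 8.75 to 16.4 in amyloid WT and 8.20 to 15.0 in amyloid Hom mice, ranges that overlapped throughout. Mast cell markers summed to at most 0.479 CPM and B cell markers to at most 0.976 CPM in any library. T and NK cell markers were read because NK cells also use the *Fcer1g* chain, and they ran from 0.0309 to 0.200 CPM in non-amyloid WT, 0 to 0.213 in non-amyloid Hom, 0.256 to 0.979 in amyloid WT and 0.117 to 0.535 in amyloid Hom mice, so the WT groups of the cohorts did not overlap and the Hom groups did. Their part in the member levels was not tested.

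The balance between the inhibitory and the activating receptor genes is given as a description, with no test. The level per length of *Fcgr2b* over the sum of *Fcgr1*, *Fcgr3* and *Fcgr4* had a geometric mean of 0.0704 in non-amyloid WT, 0.0837 in non-amyloid Hom, 0.114 in amyloid WT and 0.0926 in amyloid Hom mice. For this ratio 9 of 10 amyloid WT mice were above every non-amyloid WT mouse, and 3 of 10 amyloid Hom mice were below every amyloid WT mouse. *Fcgr2b* made up 3.81%, 4.68%, 5.999% and 5.09% of the summed level per length of the 5 members other than *Fcgrt*, in the same order of groups.

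The members were also set beside their partners as ratios of CPM, which show a shift between groups but, without lengths, not which gene of a pair was more abundant. *Fcer1g* over *Tyrobp*, which encodes DAP12, the other ITAM adaptor of microglia and the partner of TREM2, had a geometric mean of 0.452 in non-amyloid WT, 0.441 in non-amyloid Hom, 0.248 in amyloid WT and 0.272 in amyloid Hom mice. The WT groups of the cohorts did not overlap for this ratio, *Tyrobp* having gone from 13.8 CPM in non-amyloid WT to 94.2 CPM in amyloid WT mice. *Fcgrt* over *B2m*, the gene of its light chain, had geometric means of 0.131, 0.137, 0.0591 and 0.0788 in the same order, with *B2m* at 87.2, 81.5, 207 and 142 CPM.

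Of 24 tested ITAM adaptor and signaling genes, edgeR called 0 in amyloid Hom against WT mice, against 0.0753% of all genes. At an unadjusted p under 0.05, 17 were lower, against 5.77% of all genes, and 1 was higher. The median log2 fold change was -0.52 beside 0.00 for all genes. *Was*, an actin regulator of phagocytic cups, was at -0.67 (adjusted p = 0.0554) and *Tyrobp* at -0.90 (adjusted p = 0.0599). With sex as a covariate 14 were called lower, against 1.14% of all genes. Among them were *Was* (-0.65, edgeR adjusted p = 0.00371), *Tyrobp* (-0.89, adjusted p = 0.00560), the adaptor gene *Lcp2* (-0.50, adjusted p = 0.00874) and the Rac activator gene *Dock2* (-0.55, adjusted p = 0.00886). The single higher gene, named after its values were seen, was *Cd247*, the T cell receptor zeta chain, with a log2 fold change of 3.35 that rests on replicate 19, where it had 465 counts against 0 to 16 in the other 39 libraries. In amyloid WT against non-amyloid WT mice 18 of the 24 were called higher, against 6.62% of all genes. *Tyrobp* was at 2.77, *Lat2* at 1.78, *Dock2* at 1.51 and *Vav1* at 1.47, and the list median was 1.17. In the Hom mice of the cohorts 17 were, against 5.71% of all genes, with a median of 0.61. These include *Cd247* (4.33), whose counts rest on replicate 19, and the list was not counted again without that library.

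Of 7 tested genes acting with the inhibitory receptor, 1 was called lower in amyloid Hom mice, where 0.0753% of all genes were called. It was *Ptpn6*, which encodes the phosphatase SHP-1, with a log2 fold change of -0.86 (edgeR adjusted p = 0.0402). With sex as a covariate, *Ptpn6* (-0.85) and *Inpp5d* (-0.48), the gene of the inositol phosphatase that the *Fcgr2b* receptor recruits, were called, each with an adjusted p of 0.00371. *Ptpn6* (1.91), *Inpp5d* (1.04) and *Dok1* (1.05) were called higher in amyloid WT than in non-amyloid WT mice. In the non-amyloid cohort no gene of either list was called between Hom and WT mice, where 0.0329% of all genes were.

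Among 7 tested genes of other Fc receptors and Fc receptor-like proteins, *Fcrls*, a microglial Fc receptor-like gene, rose in amyloid mice with log2 fold changes of 2.21 in WT and 1.55 in Hom mice. Between amyloid Hom and WT mice it stood at -0.58 (edgeR adjusted p = 0.108), and with sex as a covariate it was called at -0.58 (adjusted p = 0.00672). In amyloid WT against non-amyloid WT mice *Trim21*, the cytosolic antibody receptor gene, was called at 0.74 and *Fcrl1*, an Fc receptor-like gene known from B cells, at 1.54 (adjusted p = 0.00234). Immunoglobulin genes, the ligand side, were sparse: of 6 tested, 0 were called by edgeR between amyloid Hom and WT mice, where 0.0753% of all genes were. *Ighm* was at -0.16 (edgeR adjusted p = 0.744) and *Ighg3* at -1.29 (adjusted p = 0.610). In WT mice of the cohorts *Igha* was called higher at 2.003 (adjusted p = 0.00864) and *Ighg2b* lower at -2.77 (adjusted p = 0.0205), the latter in a contrast that includes replicate 24.

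After the group means were subtracted, the genes whose log2 CPM followed the members most closely over the 40 libraries were largely those of myeloid cells, which share library and depth with them. Sex was not subtracted, so differences between the sexes within a group remain in these correlations. *Nckap1l*, a hematopoietic actin regulator, correlated with *Fcer1g* at r = 0.875 (Pearson) and with *Fcgr3* at 0.851. The other leading genes for *Fcgr3* were *F11r* (0.852), which came first, and *Mpeg1* (0.850). *Ctsb* (0.874) and *Cd63* (0.868) were next for *Fcer1g*, and without replicate 19 its leading genes were *Ctsh* (0.920), *Ly86* (0.914) and *Nckap1l* (0.904). For *Fcgr1* the leading genes were *Arhgap30* (0.860), *Itgam* (0.860) and *Tgfbr2* (0.846), and for *Fcgr2b* they were *AF251705* (0.870), *Fam46c* (0.848) and *Lyz2* (0.838). The scarce *Fcgr4* reached only 0.701 with *Lgals3bp*, 0.684 with *Ifitm3* and 0.679 with *P2ry6*. *Fcgrt* kept other company, with *Eln* (0.880), *Bcam* (0.869) and *Galk1* (0.860), genes of elastin, a laminin-binding adhesion protein and galactokinase. These leading genes depended on the libraries used: of the 3 named for each of *Fcgr1* and *Fcgr3*, 0 were among the closest 3 in the amyloid or in the non-amyloid libraries alone, and of the 3 for *Fcgr4*, 1 was in the amyloid libraries, 0 were in the non-amyloid libraries and 0 were by Spearman's rank correlation over all libraries. In the amyloid libraries alone 2 of 3 recurred for *Fcer1g*, 1 for *Fcgr2b* and 2 for *Fcgrt*, and in the non-amyloid libraries alone 0, 1 and 1. The closest gene in the non-amyloid libraries alone was RP23-152I6.3 for *Fcer1g*, *Anpep* for *Fcgr1* and *Prelid2* for *Fcgr3*. It was *Pkhd1l1* for *Fcgr4*, *Igsf6* for *Fcgr2b* and *Bcam* for *Fcgrt*. Among themselves the 5 members other than *Fcgrt* correlated at 0.4996 to 0.782 over the 40 libraries.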

How the data were processed

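Poly-A selected cortical RNA was sequenced by the authors, and whole-number read counts per gene, not normalized, were deposited in 1 merged table for 40 libraries. The submitters' processing notes name the build mm10, STAR 2.5.2b, featureCounts 1.5.1 and edgeR; the strand setting is not given in the sources used here. Groups came from the labels. The members and gene lists were chosen with earlier results of these data known.

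Genes were kept if 4 or more libraries had 10 or more counts, and TMM factors were computed over all 40 libraries. Tests used the quasi-likelihood test of edgeR 4.0.16 (R 4.3.3). The cohort comparisons and the genotype by cohort term came from 1 fit of all 40 libraries in 4 groups. Comparisons of Hom with WT mice and of females with males were fitted within a cohort. Those within a sex and the genotype by sex term shared 1 fit of the amyloid cohort. Adjustment was Benjamini-Hochberg over all 21253 genes, with the study's thresholds (adjusted p under 0.05, log2 fold change beyond 0.25). CPM were counts over the TMM-scaled library size. Likeness was Pearson's r of log2 CPM (prior count 2) after the group means were subtracted; the 3 closest genes per member are named. One gene of the microglial reference is not reported here by name. Values per length used the gene length in the file. From each pathway list at most 4 called genes per comparison are named by lowest p, or at most 2 where none was called. The scripts were tested on simulated data. Among the 180 pairs of libraries within a group, no pair agreed within sampling noise (lowest chi-square per degree of freedom 13.7). Alternatives were DESeq2 1.42.0, limma 3.58.1 (voom with quality weights), other scalings and filters, covariates and single libraries left out. The study left out 1 amyloid Hom female, giving a low gene count percentage and its strand check as reasons. The labels do not name that mouse, and all 10 were kept here. Replicate 19, an amyloid Hom female, had the lowest depth and the highest share of counts on antisense genes. It may be the mouse that the study left out, which the labels do not settle.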

Additional observations from a re-analysis of the deposited data

Results flagged for a closer look

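In amyloid WT mice, *Fcgr1* stood far from the other 9 mice in replicate 32, at 20.8 CPM, by Dixon's test. In non-amyloid WT mice the same held for *Fcgr4* in replicate 1, at 0.425 CPM. Over 24 groups examined, chance gives about 1 in 20. The Hom against WT difference of *Fcgr2b* differed between the cohorts when sex was a covariate, with a genotype by cohort term of -1.26 on the log2 scale.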

How the results depend on the processing

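No paired analysis was run, because the study describes littermate cohorts but the labels used here name no litter. In amyloid Hom against WT mice 0 members were called; DESeq2, sex as a covariate, 1 fit of 40 libraries, and sex as a covariate without replicate 19 (the last chosen after seeing the data) each called 5, and upper-quartile scaling, library size alone and edgeR's own expression filter each called 1. Single libraries left out gave 0 to 5. In the genotype by cohort term (0 called) DESeq2 called 1, among 38 genes in all. Sex as a covariate called 1 with replicate 19 (among 12 genes) and without it (among 6). Single libraries left out gave 0 to 1. DESeq2 called 3 members in amyloid females against males, among 257 genes in all (1 among 51 in edgeR). In females Hom against WT gave 0 to 4 members over single libraries left out, with 0 to 1141 genes called in all. With the microglial reference, 2 members were called between WT mice of the cohorts (51 genes in all) and 3 between Hom mice (381 genes in all). Without the reference 5 members were called in each, among 1689 and 1395 genes. The causes were not tested. Signs of log2 values turned in the following cases, and not for *Fcgr2b* under any alternative run. Under voom they were *Fcgrt* between WT mice of the cohorts (-0.00376), *Fcgr3* in non-amyloid females against males (-0.00302) and the genotype by sex terms of *Fcer1g* (0.0464) and *Fcgrt* (-0.0270). With the microglial reference they were *Fcgr1* in amyloid Hom against WT mice (0.0286), *Fcgr4* in non-amyloid Hom against WT mice (0.0881), the genotype by cohort term of *Fcgr1* (0.0564) and *Fcgrt* between WT mice (-0.0187). Over single libraries left out, *Fcgrt* ranged from -0.0236 to 0.0573 between WT mice, -0.0614 to 0.0176 between Hom mice, -0.0727 to 0.0029 in non-amyloid Hom against WT mice, -0.113 to 0.0512 in amyloid females and -0.0097 to 0.173 in the genotype by sex term. In that term *Fcer1g* ranged from -0.288 to 0.0349 and *Fcgr1* from -0.316 to 0.0575. In non-amyloid Hom against WT mice *Fcgr3* ranged from -0.0512 to 0.0236 and *Fcgr4* from -0.212 to 0.169. Depth limits *Fcgr4*, with as few as 3 counts in a library.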
